A study of Salmo salar with 12 samples.

Results

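In ATAC-seq the transposase Tn5 cuts DNA where chromatin is open and adds sequencing adapters there, and a peak is a region that collected many such cuts. The regions described here are runs, stretches of at least 3 peaks with consecutive peak numbers that all became more accessible, or all became less accessible, between the first and the second sampling of Atlantic salmon liver (T1 and T2). They were selected on the values themselves. For each peak the mean of the 3 T1 libraries was subtracted from the mean of the 3 T2 libraries on the deposited log2(CPM + 1) scale, where CPM is the count scaled to a common library total, and a peak entered a run when it and its neighbours differed by at least 0.5 with the same sign. This gave 497 runs with 1857 of the 94780 consensus peaks (1.96%). Of these, 173 runs with 658 peaks were more accessible at T2 and 324 runs with 1199 peaks were less accessible.

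All 12 libraries came from snap-frozen liver of female Atlantic salmon that were reared together in tanks and brought towards maturation by extended light. The T1 fish were taken just before the long light started and the T2, T3 and T4 fish after it, with 3 biological replicates at each time point. Every later group is therefore set against fish that were also earlier in the season and younger, and light, time and age cannot be told apart. Whole liver was used, so a change in the cells of the tissue and a change of the chromatin within them cannot be told apart either.

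In egg-laying vertebrates, oestrogen from the growing ovary drives the liver of a maturing female to make the precursors of egg yolk and egg shell. Genes that are switched on strongly are often served by several regulatory elements, among them promoters, enhancers and the elements within their bodies, and the accessibility of such neighbouring elements often moves together. The peaks are named here by their numbers, and their positions, genes and sequences were not analysed. The peaks were numbered from 8510 to 103289 without gaps. The sources used here do not state that the numbers follow the genome, and a run is a statement on the numbering.

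Total counts in peaks ranged from 4199681 to 31312069 per library, and the smallest total at T1, T3 and T4 was in replicate 1, replicate 3 and replicate 2, respectively. The following features of the libraries touch many of the results below. In the runs that were more accessible at T2, T2 replicate 3 and T3 replicate 1 had the median nearest to T1 within their time points. T2 replicate 3 was above every T1 library in 115 of these 173 runs (66.5%) and T3 replicate 1 in 90 (52.0%). Of all stretches of 3 consecutive peaks, 19.1% and 18.7% were above T1 in these libraries. The T1 and T2 libraries chose the runs, so that nothing follows from the count at T2. Of the 10 more accessible runs with at least 7 peaks, T2 replicate 3 was above T1 in 3 and T3 replicate 1 in 4. The library with the smallest total of T1, T3 and T4 was also the library of its time point with the highest median in the runs that were less accessible at T2. At T2 itself the smallest total was in replicate 2 and the highest such median in replicate 3. This order was not particular to runs. Single peaks, lower by at least 0.5 at T2 without such a neighbour, had their highest medians in the same libraries.

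Peaks that differed by at least 0.5 were found next to each other more often than the number of such peaks alone would give. At T2, 6000 peaks (6.33%) were higher by at least 0.5 and 8811 (9.30%) were lower. Over all possible orders of the same peaks, the mean number of runs is 22.5 for more accessible peaks, and 173 were observed, 7.68 times as many. For less accessible peaks the mean is 69.0 runs and 324 were observed, 4.69 times as many. The runs held 11.0% of the more accessible and 13.6% of the less accessible peaks, against 1.15% and 2.43% in a random order. These means were computed exactly and carry no test. They describe an order in which peaks are independent of their neighbours.

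The excess grew with the length of the run. Of the more accessible runs, 117 held 3 peaks, 29 held 4 and 27 held 5 or more, and the mean over all orders for the last class is 0.0901 runs. Of the less accessible runs, 200 held 3 peaks, 75 held 4 and 49 held 5 or more, against a mean of 0.596. In each direction 10 runs had 7 or more peaks. The longest run had 16 peaks and was more accessible (peak94168 to peak94183), and the longest less accessible run had 13 (peak94109 to peak94121).

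**Figure D1:**
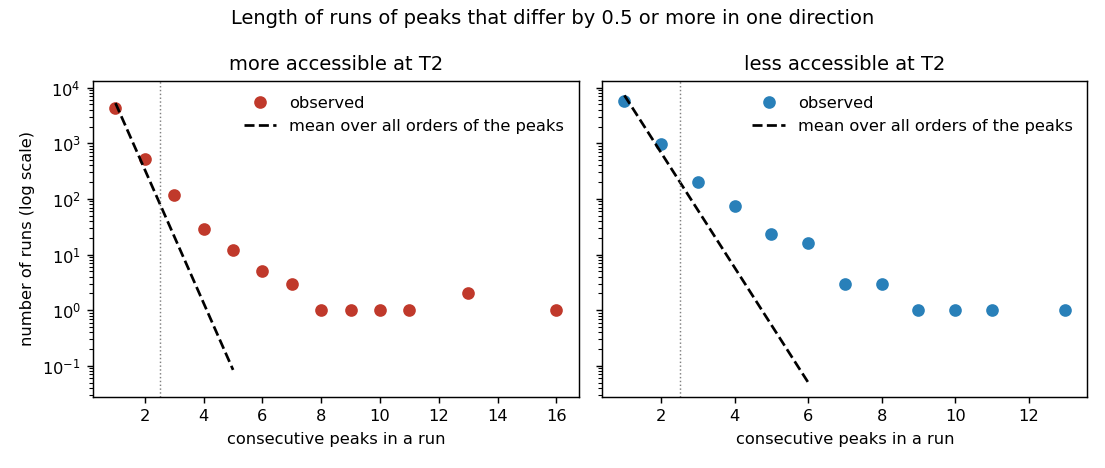
Number of runs (log scale) against the number of consecutive peaks in a run, for peaks more accessible (left) and less accessible (right) at T2; points are the observed runs, dashed lines the mean over all orders of the same peaks, and runs count from the dotted line. Observed runs lie above the line from 2 peaks on, with 27 and 49 runs of 5 or more peaks against means of 0.0901 and 0.596.

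An excess of runs was not particular to T2. The same rule applied to T4 minus T3, which shares no library with the choice of the runs, gave 1504 more accessible runs against a mean of 576 over all orders, and 471 less accessible runs against 81.4. For T3 minus T1 it gave 183 and 133 runs against 25.7 and 17.0, respectively. For T4 minus T1 it gave 2153 and 732 runs against 1077 and 189. The latter comparisons use the same T1 libraries as the runs described here. Of the 658 more accessible run peaks, 190 were also in a more accessible run of T3 minus T1 and 265 in one of T4 minus T1. Such runs held 661 and 8635 of all 94780 peaks, respectively. Of the 1199 less accessible run peaks, 173 and 232 were in less accessible runs of these comparisons, which held 463 and 2663 of all peaks. Another 66 of the less accessible run peaks were in more accessible runs of T4 minus T1.

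Beyond the edges of the runs, the median change was small. The peaks directly beside a more accessible run had a median T2 minus T1 difference of 0.12 (341 peaks), and the median was -0.01 at a distance of 5 peaks. Beside less accessible runs the median was -0.14 (636 peaks) at a distance of 1 and -0.05 at a distance of 10. For comparison, the median over all 94780 peaks was -0.02. The peaks at the edge are below 0.5 by the rule, so that a step at the edge is in part built in. Of the values at the threshold, peak94833 was the more accessible run peak nearest to 0.5 and peak46874, which lies beside a run, was just outside with 0.499. In the other direction peak42156 was just inside with -0.501, and peak32797 was just outside.

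Peaks in more accessible runs were below the median peak at T1 and above it at T2, which the rule favours, and they were more variable at T2. Their median level was 2.36 at T1 and 3.32 at T2 on the log2(CPM + 1) scale, whereas the median of all peaks was 2.55 and 2.51. Their median count per library was 100, against 77 for all peaks. The median SD over the 3 T2 libraries was 0.53 in these run peaks and 0.23 over all peaks, and at T1 it was 0.32 and 0.27. Peaks in less accessible runs had a median level of 2.65 at T1 and 1.79 at T2, and a median count of 57. Their median SD at T2 was 0.33.

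The longest run (peak94168 to peak94183) had a mean log2(CPM + 1) over its 16 peaks of 2.63, 2.32 and 1.84 in the 3 T1 libraries. The values were 5.27, 4.26 and 2.02 at T2, 1.95, 3.87 and 3.34 at T3, and 3.55, 3.82 and 3.91 at T4. T2 replicates 1 and 2, T3 replicates 2 and 3 and all T4 libraries were above every T1 library, and T2 replicate 3 and T3 replicate 1 lay within the range of T1. From T1 the run differed by a mean of 1.59 (T2), 0.79 (T3) and 1.50 (T4). In CPM summed over the run, T2 replicate 1 was 7.02 times the T1 mean, replicate 2 was 3.61 times and replicate 3 was 0.919 times.

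Within this run, all 16 peaks were higher at T2, as the rule demands, but not by the same amount. Of these, 12 at T3 and 14 at T4 were at least 0.5 above T1. The largest difference was at peak94180, where the CPM was 9.16, 9.56 and 3.07 at T1 and 314, 126 and 4.99 at T2. In T3 libraries it was 8.75, 119 and 25.5, and in T4 libraries 51.2, 54.3 and 119. The smallest difference, 0.61, was at peak94170, which was the most accessible of the run at T1 (log2 level of 6.0) and had 7.08, 6.79 and 5.95 at T2. The peak after the end of the run, peak94184, was flat, with a mean of 4.01 at T1 and 4.07 at T2, and so was peak94167 before its start, with 1.80 and 1.88.

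The run with the largest mean difference (2.19) spanned 13 peaks, peak101056 to peak101068. Its mean level was 3.35, 3.19 and 2.46 at T1, 6.75, 5.97 and 2.84 at T2, 2.43, 5.05 and 3.85 at T3, and 5.11, 4.57 and 5.45 at T4. Again T2 replicate 3 was within the range of T1, and T3 replicate 1 was slightly below it. Summed over the run, CPM averaged 132 ± 29.6 over the 3 T1 libraries (SD, n = 3) and 875 ± 737 over the 3 T2 libraries (SD, n = 3), 6.61 times as high. At its first and strongest peak, peak101056, the CPM was 8.56, 12.5 and 5.46 at T1 and 324, 180 and 9.62 at T2. The next peak before it, peak101055, was at 5.90 at T1 and 5.93 at T2 on the log2 scale. The run was separated by a single peak, peak101069 with a difference of 0.48, from a further more accessible run that started at peak101070.

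**Figure D2:**
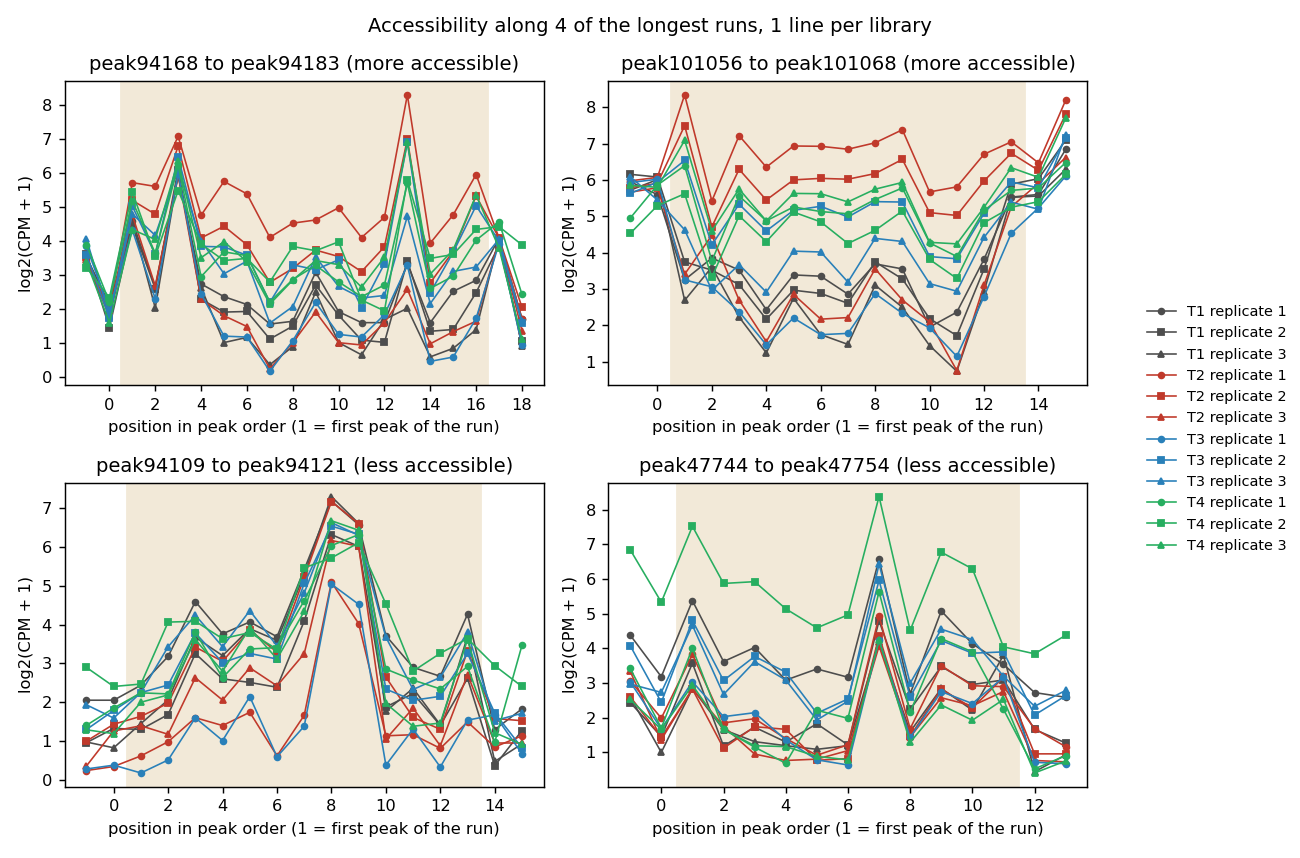
Log2(CPM + 1) of each peak against its position in the peak order for 4 long runs, with 2 flanking peaks on each side; each line is a library (colour, time point; symbol, replicate) and shading marks the run. In the upper panels T2 replicates 1 and 2 run above all T1 libraries along the whole run and T2 replicate 3 does not; the lower panels show the less accessible runs, where T2 replicate 1 and T3 replicate 1 (left) are lowest at most peaks and T4 replicate 2 (right) is highest.

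Of the other leading more accessible runs, those from peak11710 and peak24724 had a similar order of libraries. The run of 13 peaks from peak11710 to peak11722 was at 2.59, 2.00 and 1.41 at T1, and at 5.13, 4.26 and 1.64 at T2. Its T3 values were 1.53, 4.01 and 2.96, and those of T4 3.64, 4.02 and 3.65. The run of 9 peaks from peak24724 to peak24732 was at 2.47, 2.32 and 1.48 at T1, at 5.39, 4.31 and 1.86 at T2, at 1.89, 3.91 and 3.47 at T3 and at 3.74, 3.87 and 3.76 at T4. In both, T2 replicate 3 and T3 replicate 1 were within the range of T1, and all 3 T4 libraries were above it. At T4 the replicates of these runs were close together, with SDs of the run mean of 0.22 and 0.07, against 1.82 and 1.81 at T2.

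The run of 11 peaks from peak39847 to peak39857 was the only one of the 6 named more accessible runs in which all T2 libraries were above all T1 libraries. Its mean was 2.69, 2.61 and 2.25 at T1, 4.96, 4.33 and 2.84 at T2, 2.87, 3.44 and 3.36 at T3, and 3.80, 3.32 and 3.17 at T4. T2 replicate 3 exceeded the highest T1 library by a small margin. At its strongest peak, peak39848, the CPM was 10.6, 14.4 and 8.08 at T1 and 282, 160 and 23.4 at T2. Its mean difference from T1 was 1.53 (T2), 0.71 (T3) and 0.91 (T4). Unlike the named runs, most runs had no overlap of T1 and T2 in their means. This held for 102 of 173 more accessible runs (59.0%) and 236 of 324 less accessible runs (72.8%). The same contrast chose the runs, and the share over all stretches of consecutive peaks was not computed.

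The sixth named run, peak74344 to peak74346, had a pattern of presence and absence. The counts summed over its 3 peaks were 4, 1071 and 6 at T1, 667, 659 and 635 at T2, 1282, 0 and 0 at T3, and 312, 96 and 510 at T4. Reads were thus nearly absent in 2 T1 libraries and absent in 2 T3 libraries, whereas the other 8 held between 96 and 1282 counts. The T2 libraries fell inside the T1 range, and the mean difference was 1.92. A less accessible run of 3 peaks, peak63108 to peak63110, was chosen after its values were seen, as the only other run in which every peak had at most 3 counts in a library while another library held at least 50 in the run. Its summed counts were 1006, 2386 and 3406 at T1, 2260, 17 and 2610 at T2, 20, 1390 and 291 at T3, and 954, 158 and 1 at T4.

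**Figure D3:**
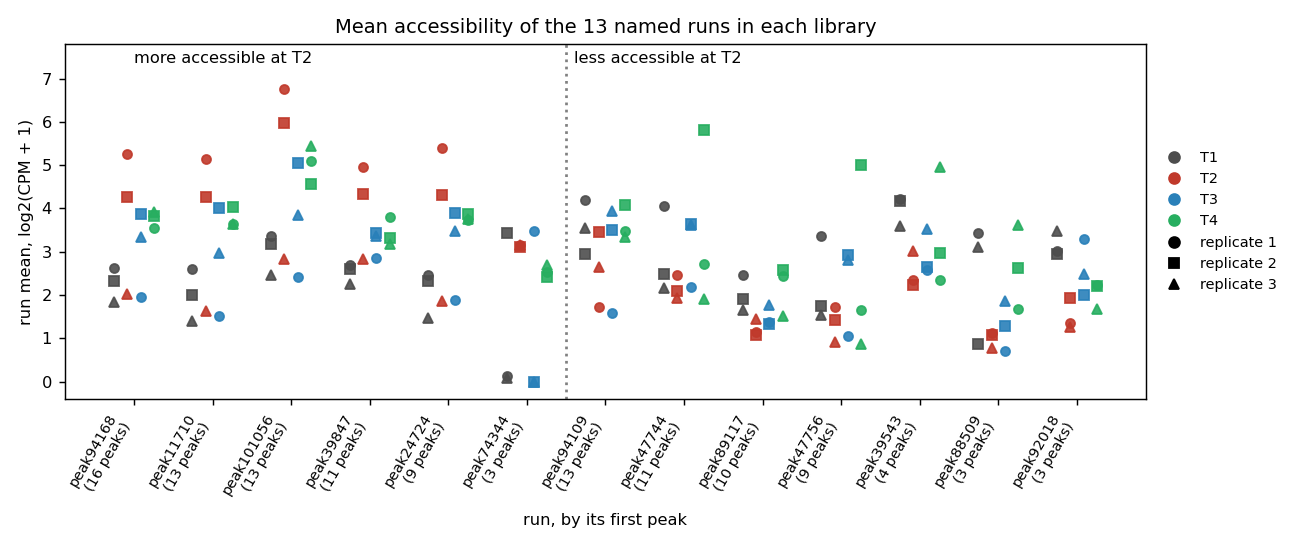
Mean log2(CPM + 1) over the peaks of each of the 13 named runs, by its first peak and grouped by direction and length; each symbol is a library, coloured by time point. In the 5 longest of the named more accessible runs on the left T2 replicate 3 (red triangle) lies far under T2 replicates 1 and 2, and peak74344 is at or near 0 in 4 libraries.

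The likeness of some leading runs was also seen at T3 and T4, which the rule did not use, and others lacked it. Over the 6 libraries of T3 and T4, with each time point centred on its mean, the run means of the longest run correlated with those of the runs starting at peak24724 (r = 0.98), peak11710 (r = 0.97) and peak101056 (r = 0.92), and less with that starting at peak39847 (r = 0.53). With the named run starting at peak74344 the correlation was negative (r = -0.94). It was near 0 with the runs of 10 and 8 peaks starting at peak96280 (r = -0.03) and peak23809 (r = 0.04). Of the other 172 more accessible runs, 18 had r of at least 0.9 with the longest run, and the median was 0.47. None of the 324 less accessible runs did, and their median was 0.03 and their highest r was 0.85. Some of the 18 were close to each other in the numbering, such as those starting at peak24724 and peak24734. The share over all stretches of consecutive peaks was not computed, so that these counts have no background. The correlations are given as a description over 6 libraries, in which total counts ranged from 4199681 to 25088154, and the runs compared come from the same libraries. The run most like it was peak24166 to peak24168 (r = 1.00).

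The less accessible runs also differed between replicates. The longest, peak94109 to peak94121, was at 4.19, 2.94 and 3.56 at T1, 1.71, 3.47 and 2.65 at T2, 1.58, 3.50 and 3.95 at T3, and 3.49, 4.07 and 3.34 at T4. It was lowest in T2 replicate 1 and T3 replicate 1, and T2 replicate 2 was within the T1 range. The T2 and T1 libraries therefore overlapped, and the mean difference was -0.95 (T2), -0.55 (T3) and 0.07 (T4). At peak94115, which differed most, the CPM was 41.7, 16.0 and 37.9 at T1 and 2.16, 36.2 and 8.51 at T2.

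The runs peak47744 to peak47754 (11 peaks) and peak47756 to peak47764 (9 peaks) were separated by a single peak and had a similar order of libraries. The former was at 4.06, 2.49 and 2.17 at T1, 2.46, 2.09 and 1.94 at T2, 2.18, 3.65 and 3.62 at T3, and 2.72, 5.82 and 1.90 at T4. Values of the latter were 3.36, 1.76 and 1.54 at T1, 1.73, 1.43 and 0.91 at T2, 1.05, 2.92 and 2.82 at T3, and 1.66, 5.0 and 0.87 at T4. T1 replicate 1, T3 replicates 2 and 3 and T4 replicate 2 were high, and these libraries had total counts of 11796690, 13102712, 7476523 and 4199681, respectively. T4 replicate 1 had a total of 11568806 and was lower, at 2.72 and 1.66. The part of depth in this pattern was not tested. T2 overlapped T1 in both runs, and their mean difference was positive at T3 and T4.

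The run of 10 peaks from peak89117 to peak89126 did not overlap between T1 (2.46, 1.91 and 1.66) and T2 (1.14, 1.08 and 1.45). Its T3 values were 1.39, 1.33 and 1.77, and its T4 values 2.44, 2.59 and 1.52. At T4 replicates 1 and 2 were thus again in or above the T1 range.

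The 3 less accessible runs with the largest mean difference were short. The run peak92018 to peak92020 changed by -1.63, with 3.03, 2.94 and 3.49 at T1 and 1.37, 1.94 and 1.26 at T2. Its T3 values were 3.29, 2.00 and 2.49, and its T4 values were 2.24, 2.22 and 1.69, all below T1. The run peak39543 to peak39546 changed by -1.47, with 4.23, 4.16 and 3.59 at T1 and 2.34, 2.22 and 3.02 at T2. T3 gave 2.57, 2.64 and 3.52 and T4 gave 2.34, 2.96 and 4.96, where replicate 3 was above every other library. The run peak88509 to peak88511 changed by -1.49 and overlapped T1, where replicate 2 was at 0.87 and the others at 3.44 and 3.12. Its T2 values were 1.12, 1.09 and 0.77. At T3 it was at 0.72, 1.28 and 1.87, and at T4 it was at 1.68, 2.62 and 3.61.

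Across all more accessible runs, the median change of the 658 peaks from the T1 mean was 1.15, 0.93 and 0.38 in the 3 T2 libraries. At T3 it was 0.18, 0.78 and 0.53, and at T4 0.56, 0.66 and 0.62, whereas the T1 libraries themselves were at 0.13, 0.04 and -0.20. All later libraries were thus above all T1 libraries in the median, and T3 replicate 1 was the nearest to T1. Over time points, the median difference was 0.78 (T2), 0.51 (T3) and 0.62 (T4), and the later values were 0.650 and 0.797 of the T2 difference. That difference chose the peaks and is favoured by the rule. In libraries left out of the choice, the median T2 difference was 0.42. That value comes from other sets of runs and from single pairs of libraries, and is not a like measure to the later values. Because the rule favours the T2 difference, the shares do not show a return towards T1. Single peaks that passed the same difference but had no such neighbour kept 0.609 and 0.938. Without T2 replicate 1 the runs kept 1.23 at T4. The difference between runs and single peaks was not tested. Over all peaks the medians were -0.02 (T2), 0.04 (T3) and 0.12 (T4). The last depends on the scaling, since the median log2FC of all tested peaks between T4 and T1 was 0.06 with TMM factors and 0.16 without them, and relative to either the run peaks remained higher.

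In the median over their peaks, less accessible runs moved evenly between libraries at T2 and less evenly later. Single runs were less even, and the range of the run mean over the 3 libraries had a median of 0.48 at T2 and 0.53 at T1. Their 1199 peaks had a median change of -0.81, -0.75 and -0.70 at T2, -0.51, -0.56 and -0.16 at T3, and -0.71, -0.09 and -0.50 at T4, against 0.23, -0.15 and -0.07 at T1. T4 replicate 2, the shallowest library, was within the T1 range. The part of depth in this was not tested. Over time points the median difference was -0.72 (T2), -0.38 (T3) and -0.44 (T4), which is 0.530 and 0.610 of the T2 difference. That difference again chose the peaks, and its median was -0.22 in libraries left out of the choice, over other sets of runs. These shares do not show a return towards T1 either. Single peaks kept 0.546 and 0.575. Without T1 replicate 3 the runs kept 0.234 at T4.

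**Figure D4:**
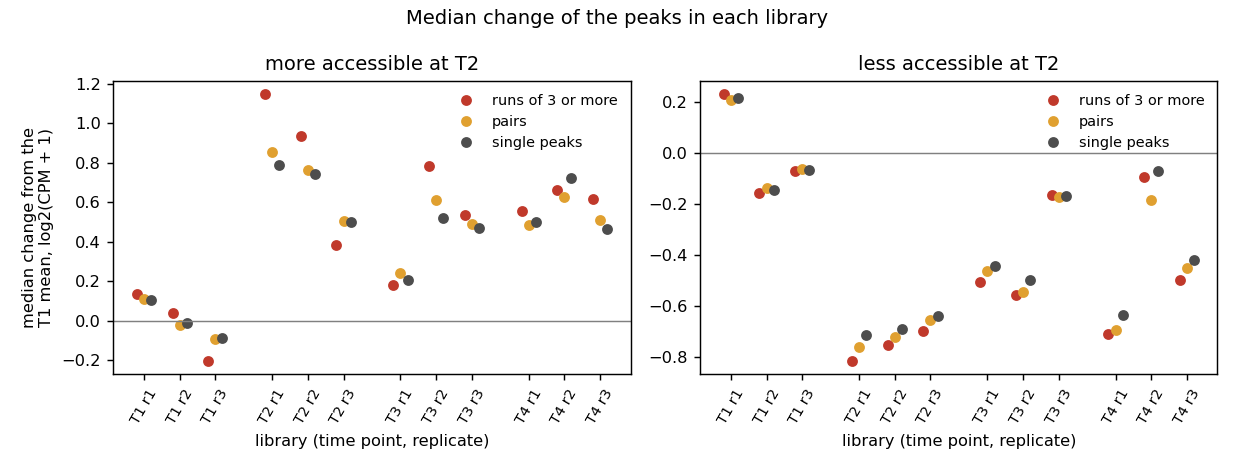
Median change from the T1 mean on the log2(CPM + 1) scale in each library (r, replicate) for peaks in runs of 3 or more, in pairs and single, which were more accessible (left) or less accessible (right) at T2. On the left the runs span 0.38 to 1.15 at T2 and the single peaks 0.50 to 0.79; on the right T3 replicate 3 and T4 replicate 2 are nearest to T1.

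The replicates of T2 differed more in more accessible runs than in single peaks. Single more accessible peaks had a median change of 0.79, 0.74 and 0.50 in the 3 T2 libraries, a narrower span than the 1.15, 0.93 and 0.38 of run peaks. T2 replicate 1 was the highest T2 library in 109 of the 173 runs, replicate 2 in 36 and replicate 3 in 28. The run mean of T2 replicate 1 was above all T1 libraries in 164 of 173 runs (94.8%), that of replicate 2 in 161 (93.1%) and that of replicate 3 in 115 (66.5%), where 23.8%, 26.4% and 19.1% of all stretches of 3 consecutive peaks were. This contrast chose the runs, so that nothing follows from these counts at T2. Of the 10 runs of at least 7 peaks, all were above T1 in replicates 1 and 2 and 3 in replicate 3. In replicates 1, 2 and 3 of T3 the numbers were 90, 152 and 136 of 173 runs (52.0%, 87.9% and 78.6%, against 18.7%, 27.2% and 45.0% of all stretches). In those of T4 they were 114, 124 and 139 (65.9%, 71.7% and 80.3%, against 40.8%, 56.9% and 19.7%). In the 324 less accessible runs, the run mean was below all T1 libraries in 279, 293 and 274 runs at T2, which the rule favours, where 29.2%, 26.4% and 30.2% of all stretches were. The numbers were 220, 240 and 147 at T3 (67.9%, 74.1% and 45.4%, against 33.96%, 26.1% and 15.4%) and 247, 145 and 223 at T4 (76.2%, 44.8% and 68.8%, against 31.3%, 23.1% and 31.2%). The values at T3 and T4 use the T1 libraries that also chose the runs.

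Measured as a share of all counts in peaks, the more accessible runs took 0.543%, 0.584% and 0.463% at T1 and 1.66%, 1.24% and 0.732% at T2. They took 0.689%, 1.07% and 0.789% at T3 and 0.836%, 0.773% and 0.995% at T4, above T1 in every library. The less accessible runs took 1.34%, 1.05% and 1.06% at T1 and 0.540%, 0.599% and 0.704% at T2. Their share was 0.820%, 0.706% and 0.962% at T3, below T1 in every library, and 0.583%, 1.26% and 0.815% at T4, where replicate 2 was within the T1 range.

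Peak by peak, the 3 T2 libraries were all above the 3 T1 libraries in 290 of 658 more accessible run peaks (44.1%), where 7.06% of all peaks were. They were all below them in 648 of 1199 less accessible run peaks (54.0%), where 9.84% of all peaks were. These peaks were selected on the same contrast, so that nothing follows from these counts. Single peaks selected in the same way were without overlap in 2345 of 4310 (54.4%) and 3348 of 5712 (58.6%).

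At T3 and T4 most run peaks lay on the same side of T1 as at T2, and fewer lay at least 0.5 from it. The later mean lay on the same side of the T1 mean in 91.8% of the more accessible and 85.5% of the less accessible run peaks at T3, and in 88.6% and 75.1% at T4. Single peaks selected in the same way did so in 90.9% and 84.0% at T3 and in 90.6% and 75.8% at T4, so that the direction was kept about as often outside runs. Of the more accessible run peaks, 331 (50.3%) were still at least 0.5 above T1 at T3, where 6.63% of all peaks were, and 406 (61.7%) at T4, where 24.7% of all peaks were. Of the less accessible run peaks, 447 (37.3%) were at least 0.5 below T1 at T3, where 5.76% of all peaks were, and 542 (45.2%) at T4, where 13.2% of all peaks were. Of the more accessible single peaks selected in the same way, 36.9% were at least 0.5 above T1 at T3 and 57.8% at T4. Of the less accessible single peaks, 34.2% were at least 0.5 below T1 at T3 and 39.6% at T4. The difference between runs and single peaks was not tested here either. These comparisons use the T1 libraries that also chose the peaks. A difference of at least 0.5 in the opposite direction was found in 1 more accessible and 11 less accessible run peaks at T3, and in 5 and 127 at T4. Of the 173 more accessible runs, 83 had a mean still at least 0.5 above T1 at T3 and 106 at T4, and 62 at both, whereas 5 at T3 and 10 at T4 had a mean at or below that of T1. Of the 324 less accessible runs, 122, 153 and 81 did, and 31 at T3 and 56 at T4 had a mean at or above that of T1. For run means the share over all stretches of consecutive peaks was not computed. The counts of runs are therefore a description without a background.

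When the runs were chosen from 2 libraries of T1 and 2 of T2 and measured in the pair of libraries left out, the differences were smaller than in the choosing libraries. Over the 9 pairs, the median of the more accessible run peaks was 0.42 in the left-out libraries, against 0.78 in those that chose the runs. It ranged from -0.13 to 0.67 and was positive in 8 of 9 pairs. The negative value came from leaving out T1 replicate 1 and T2 replicate 3, for which 569 runs were chosen. In that pair the median over all peaks was -0.16. For less accessible run peaks the median was -0.22, against -0.75, with a range from -0.79 to -0.02, negative in 9 of 9 pairs. The median over all peaks was -0.14, -0.09 and -0.16 with T1 replicate 1 left out, for T2 replicates 1, 2 and 3. It was 0.04, 0.06 and 0.01 with T1 replicate 2, and 0.01, 0.02 and -0.01 with T1 replicate 3. With T1 replicate 3 and T2 replicate 1 left out, 50.6% of less accessible run peaks were lower, against 49.4% of all peaks. Single more and less accessible peaks gave 0.18 and -0.17, respectively. More accessible run peaks lay above single peaks in every pair except that of T1 replicate 2 and T2 replicate 3. There run peaks were at 0.07 and single peaks at 0.18. Less accessible run peaks changed more than single peaks in some pairs and less in others. With replicate 1 of T1 and of T2 left out, less accessible run peaks were at -0.79 and single peaks at -0.64. With T1 replicate 3 left out, run peaks were at -0.02, -0.13 and -0.12 for T2 replicates 1, 2 and 3. Single peaks were then at -0.16, -0.17 and -0.14. The pairs share libraries and are not independent.

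The choice of runs itself changed with single libraries. Without T1 replicate 1 there were 306 more accessible and 187 less accessible runs, so that the more accessible runs were then the more numerous, and 40.0% of the less accessible run peaks were still in a run. Without T1 replicate 2 there were 580 less accessible runs and without T1 replicate 3 there were 622. Without T2 replicate 3 there were 299 more accessible runs, and 83.7% of the run peaks were among them. Without T2 replicate 1 there were 146, and 51.8% of the run peaks were among them.

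Neighbouring peaks also moved together in libraries that the rule did not use. Over the 6 libraries of T3 and T4, with each time point centred, 2 adjacent peaks within a more accessible run had a median Pearson r of 0.66 (485 pairs), and within a less accessible run of 0.60 (875 pairs). Over all 94777 adjacent pairs the median was 0.33, and over pairs in which neither peak passed the difference it was 0.33 as well. Within runs the median at a distance of 5 peaks was 0.78 and 0.77, which only runs of at least 6 peaks can give. For all peaks it declined with distance, to 0.22 at 2, 0.13 at 5, 0.10 at 10 and 0.07 at 1000 peaks. The correlations are a description. Both peaks of a pair come from the same libraries and share their depth, and base composition was not measured.

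**Figure D5:**
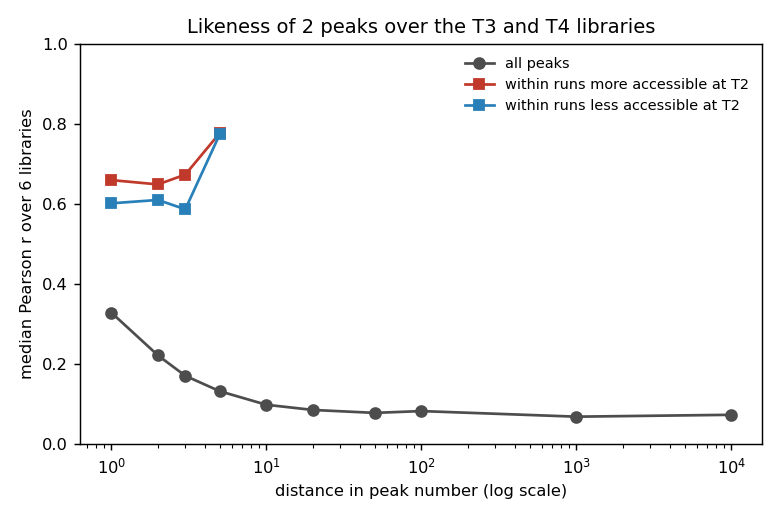
Median Pearson r of the log2(CPM + 1) of 2 peaks over the 6 libraries of T3 and T4, each time point centred, against their distance in peak number (log scale), for all peaks and within runs. At distance 1 the medians are 0.66 and 0.60 within runs and 0.33 over all peaks, which declines to 0.07 at 1000.

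The edgeR quasi-likelihood test with Benjamini-Hochberg adjustment over all peaks tested was then applied to each pair of time points, and a peak was called when its absolute log2FC exceeded 1 with an adjusted p under 0.05. Of the 1857 run peaks, 1841 passed the filter on low counts between T2 and T1, and 23 of these were called, 7 higher and 16 lower, where 0.0964% of all tested peaks were called. This contrast chose the peaks, so that the counts are a description. The 23 peaks lay in 23 different runs, the longest of which had 6 peaks. At an unadjusted p under 0.05 there were 1288 run peaks (70.0%), against 12.2% of all tested peaks.

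The lowest adjusted p was at peak88473 (log2FC -2.53, SE 0.25, adjusted p = 0.0162), where the CPM was 9.66, 11.0 and 11.6 at T1 and 1.89, 1.69 and 1.90 at T2. The T3 libraries had 1.35, 1.60 and 18.6 and the T4 libraries 2.51, 5.71 and 6.98, so that T3 replicate 3 was above T1. At peak82738 (log2FC -4.0, SE 0.44, adjusted p = 0.0203) it was 9.92, 9.18 and 10.7 at T1, 0.220, 0.525 and 1.06 at T2, 5.43, 5.34 and 2.01 at T3, and 2.25, 5.95 and 0.797 at T4, all below T1. At peak39545 (log2FC -2.0, SE 0.23, adjusted p = 0.0239) T1 was at 20.6, 17.8 and 15.7 and T2 at 3.57, 4.38 and 5.32. It remained below T1 at T3 with 5.26, 5.50 and 8.56, and at T4 replicate 3 was at 32.2, with the others at 4.32 and 5.71.

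The strongest called gain was at peak94627 (log2FC 2.87, SE 0.35, adjusted p = 0.0270), the first of 4 peaks of its run. Its CPM was 4.75, 4.68 and 4.57 at T1, 50.8, 34.9 and 16.0 at T2, 22.8, 29.2 and 11.1 at T3, and 13.9, 7.14 and 24.9 at T4. All 9 later libraries were above T1. At peak12735 (log2FC 1.96, SE 0.25, adjusted p = 0.0270) the CPM was 36.5, 43.7 and 40.8 at T1, 203, 161 and 103 at T2, 206, 165 and 127 at T3, and 59.6, 41.9 and 75.2 at T4. This peak was as high at T3 as at T2, and at T4 replicate 2 was back within the T1 range. The other 5 of the 10 called peaks with the smallest p were all lower at T2, namely peak45920, peak66174, peak98516, peak92019 and peak89815, with log2FC between -3.06 and -1.75 and adjusted p between 0.0270 and 0.0393.

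None of the 16 peaks of the longest run was called between T2 and T1, with adjusted p from 0.105 to 0.419, nor were any of the peaks of the other 5 named more accessible runs. Without T2 replicate 3, 14 of the 16 peaks of the longest run were called, as were all 13 peaks of the runs from peak101056 and peak11710, all 11 of the run from peak39847 and all 9 of that from peak24724. In all, 388 run peaks (21.1%) were called without this library, 231 of them higher, where 1.69% of all tested peaks were called. Without T1 replicate 3 there were 2, and without T1 replicate 1, T2 replicate 1 or T2 replicate 2 there were 3 each. Without T1 replicate 2 there were 12. In these fits between 0.00759% and 0.0370% of all tested peaks were called. The count of calls thus changed with single libraries, T2 replicate 3 above all, and it also changed with the test. With all libraries kept, DESeq2 called 293 run peaks between T2 and T1 and the exact test 320. Of all tested peaks they called 1.65% and 1.63%. This contrast chose the run peaks, and T2 replicate 3 had been seen to lie low in the longest more accessible runs. Nothing therefore follows from the share of run peaks called in these fits.

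Between T3 and T1, 1 of 1836 tested run peaks was called, where 0.00428% of all peaks were. It was peak14200 (log2FC 3.28, SE 0.25, adjusted p = 0.00195), which had a CPM of 3.05, 2.90 and 2.08 at T1 and 23.4, 25.3 and 31.6 at T3. At T2 it was at 20.6, 8.69 and 3.28 and at T4 at 7.0, 6.91 and 18.1, so that all 9 later libraries were above T1. It belonged to the run of 4 peaks from peak14198 to peak14201, whose mean was 4.01, 4.28 and 4.04 at T1, 5.78, 5.15 and 4.09 at T2, 5.90, 6.02 and 6.29 at T3, and 4.85, 4.22 and 5.78 at T4. This run was larger at T3 (1.96) than at T2 (0.90). Without T3 replicate 1, 3 run peaks were called between T3 and T1 (0.0161% of all peaks), and without T3 replicate 3 there were 7 (0.0197%).

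Between T4 and T1, edgeR's quasi-likelihood test called 0 of 1848 tested run peaks (0% of all peaks), DESeq2 called 65 (0.323% of all peaks) and edgeR's exact test 44 (0.144%). At an unadjusted p under 0.05 there were 518 (28.0%), against 12.1% of all tested peaks, and between T3 and T1 there were 520 (28.3%) against 7.12%. Without T4 replicate 3 the quasi-likelihood test called 382 run peaks between T4 and T1 (20.7%), where 14.3% of all tested peaks were called. The comparisons with T2 share its libraries with the choice of the peaks, and those with T1 share the T1 libraries. The same test called 0 of 1810 run peaks between T3 and T2 (0% of all peaks), where DESeq2 called 5 (0.0938% of all peaks) and the exact test 4 (0.0679%), and 313 (17.3%, against 6.18% of all tested peaks) had an unadjusted p under 0.05. Without T3 replicate 1 it called 2 (0.00324% of all peaks). It called 0 of 1814 between T4 and T2 (0% of all peaks), where DESeq2 called 11 (0.0852% of all peaks) and the exact test 3 (0.0202%), and 268 (14.8%, against 8.78%) had an unadjusted p under 0.05. Without T4 replicate 3 it called 301 (16.7%), near the 16.2% of all tested peaks.

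Between T4 and T3, the comparison without any library of the rule, the quasi-likelihood test called 0 of 1837 run peaks (0% of all peaks), DESeq2 called 1 (0.00424% of all peaks) and the exact test 0 (0.00212%). At an unadjusted p under 0.05 there were 130 run peaks (7.08%), against 5.52% of all tested peaks. Over both directions together this share was near that of all peaks. Of the 654 more accessible run peaks tested, 62 were among the 130, and of the 1183 less accessible, 68. By the rule for runs, 123 of the 658 more accessible run peaks were in more accessible and 34 in less accessible runs of T4 minus T3. Such runs held 5896 and 1809 of all 94780 peaks. Of the 1199 less accessible run peaks, 100 and 41 were. These counts were not tested.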

How the data were processed

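Liver ATAC-seq of 12 libraries was analysed, 3 per time point, assigned by their labels. Per the study's methods, the authors mapped reads with Bowtie2 2.3.5.1 to ICSASG_v2, filtered out duplicates (Picard), mitochondrial reads and reads with several positions, merged the MACS2 peaks that recurred in 2 or more replicates at any time point, and used HTSeq 0.11.1 to count. The deposited table of counts holds whole numbers that were not normalized. The deposited log2 values are log2(CPM + 1), computed by the authors from these counts with no further scaling, so that a pseudocount of 1 CPM dampens changes of low peaks. A shift of read positions for Tn5 is not given in the sources used here.

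Members, lists and tests were chosen with earlier results of these data known. Means, runs and medians were computed from the log2 values with Python 3.11.15, pandas 2.3.3 and numpy 2.4.6. The mean number of runs over all orders of the peaks was computed exactly. Runs were named by length (the 4 longest in each direction) and size (the 3 with the largest mean difference), and in each the peak with the largest difference. For the tests, counts of each pair of time points (6 libraries) were fitted in edgeR 4.0.16 (R 4.3.3) for all peaks with CPM above 1 in at least 2 libraries, with TMM factors, the quasi-likelihood test and Benjamini-Hochberg adjustment. The procedure was tested on simulated data. P-values set the difference between the time points of a pair against the spread between libraries of the same time point. The model estimates that spread with information shared across peaks. Alternatives were DESeq2 1.42.0, the exact test, no TMM, no filter, TMM-scaled CPM, a pseudocount of 0.25, a difference of at least 1, runs of at least 4 peaks, a replicate block, leaving out each replicate, and medians in place of means, which was chosen after seeing the data. Gene names, positions and sequences of peaks were not analysed here.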

Additional observations from a re-analysis of the deposited data

How the results depend on the processing

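The number of runs was 932 with a pseudocount of 0.25 CPM, 33 with a difference of at least 1 and 180 with at least 4 peaks in a run, against 497. Leaving out 1 replicate gave 488 to 771. As a share of the T2 difference, which chose the peaks, the T4 difference of more accessible runs was 0.669 with TMM-scaled CPM. It was 1.10 with a pseudocount of 0.25 CPM and 0.970 with a difference of at least 1. With the median of the 3 libraries, a choice made after seeing the data, it was 0.725. Leaving out 1 replicate gave 0.601 to 1.23. The other shares were 0.487 to 0.822 (T3, more accessible), 0.405 to 0.710 (T3, less accessible) and 0.234 to 0.854 (T4, less accessible). With a difference of at least 1, the left-out difference of more accessible runs was 1.73. The cause of these shifts was not tested.

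Between T2 and T1, the contrast that chose the run peaks, DESeq2 called 293 of them and the exact test 320 (1.65% and 1.63% of all peaks). Between T3 and T1 they called 76 and 67 (0.560% and 0.508%), and 3 were called with no TMM (0.00642%). Between T4 and T1 they called 65 and 44 (0.323% and 0.144%), between T3 and T2 5 and 4, between T4 and T2 11 and 3, and between T4 and T3 DESeq2 called 1. Leaving out 1 replicate gave 2 to 388 calls for T2 against T1 (0.00759% to 1.69% of all peaks), 1 to 7 for T3 against T1, 0 to 382 for T4 against T1 (0% to 14.3%), 0 to 2 for T3 against T2, 0 to 301 for T4 against T2 (0% to 16.2%) and 0 for T4 against T3. With the replicate number as a block the calls were 89 for T2 against T1 (0.324%) and 67 for T4 against T1 (0.321%). The numbers share no animal, and over 18 same-numbered pairs the correlation of deviations from the group means ran from -0.47 to 0.28, above 0.1 in 4. Where a group was left with 2 libraries, the model pooled the spread. Leaving out T1 replicate 1 turned the balance of runs to 306 more and 187 less accessible. The smallest library, with 4199681 counts, was T4 replicate 2. Without it the quasi-likelihood test called 0 run peaks between T4 and T1, as it did with all libraries. The part of depth in the T4 results was not tested.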
